A study of Homo sapiens with 6 samples.

Results

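ENO2, SEPTIN3, RAB39A, TMEM145, ATP1B2 and FABP3 are 6 genes, of 18418 measured by array, that were chosen because they read lower after knockdown of BMI1 or of the long non-coding RNA FAL-1. Each is read by 1 probe set that the platform annotation assigns to that gene alone. The cells were A2780, a human ovarian cancer cell line, and RNA was taken 96 hours after lentiviral infection. BMI1 is a subunit of Polycomb repressive complex 1, which silences developmental genes. A short hairpin RNA (shRNA) lowers the transcript it matches. The 4 groups were BMI1 shRNA with 2 hairpins, BMI1 control with 1 array, FAL-1 shRNA with 2 hairpins and FAL-1 control with 1 array. All cells were infected with lentivirus, the controls included, and were cultured in 10% fetal bovine serum. What the control viruses carried is not stated in the labels. The labels name the 2 hairpins of a target as shRNA1 and shRNA2, and repeat cultures of each are not described. The spread between hairpins therefore mixes differences between hairpins with technical spread, and these cannot be told apart. The label groups the 6 genes as neuronal and muscle-type, after the tissues in which most of them are best known. The array measures levels in 1 cell line, and the label is set against wider neuronal and muscle marker lists further on.

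Several of these genes, though not all, are known from cells with high energy use or membrane excitability, or from vesicle traffic. ENO2 encodes gamma enolase, the form of this glycolytic enzyme typical of neurons and neuroendocrine cells. FABP3 encodes the heart-type fatty acid binding protein, which carries fatty acids inside muscle cells. ATP1B2 encodes the beta-2 subunit of the sodium pump, an enzyme that exchanges sodium for potassium across the membrane, and it is also an adhesion molecule of glia. TMEM145 encodes a multi-pass membrane protein. SEPTIN3 encodes a septin, a filament-forming GTP-binding protein, that is enriched in neurons. RAB39A encodes a small GTPase that directs vesicles in the endosomal and lysosomal pathway.

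The 6 genes were chosen for low values on the same arrays, so their promoter sequences are given to show which letters they have in common. RefSeq on GRCh38.p14 gave a window for 5 of the 6, all but SEPTIN3, and the 250 bases before the annotated start are shown, 5′ to 3′ on the gene's strand. The ENO2 window lies at chr12:6914330-6914579 on the plus strand. The FABP3 window lies at chr1:31373077-31373326 on the minus strand. The ATP1B2 window lies at chr17:7646377-7646626 on the plus strand. The TMEM145 window lies at chr19:42313059-42313308 on the plus strand. The RAB39A window lies at chr11:107928198-107928447 on the plus strand. Capitals mark ACGTG or its reverse complement CACGT, 1 form of the core of the hypoxia response element. Other forms of the core were not searched.
ENO2: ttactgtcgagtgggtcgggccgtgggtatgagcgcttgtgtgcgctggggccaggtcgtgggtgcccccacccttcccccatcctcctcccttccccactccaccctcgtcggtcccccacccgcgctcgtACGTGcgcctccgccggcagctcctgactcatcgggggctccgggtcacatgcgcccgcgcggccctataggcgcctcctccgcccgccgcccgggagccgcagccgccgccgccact
FABP3: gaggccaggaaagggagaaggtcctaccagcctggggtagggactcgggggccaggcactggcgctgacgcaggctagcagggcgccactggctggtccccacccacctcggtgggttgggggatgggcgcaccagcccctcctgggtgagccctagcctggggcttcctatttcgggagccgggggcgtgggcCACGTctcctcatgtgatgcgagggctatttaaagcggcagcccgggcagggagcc
ATP1B2: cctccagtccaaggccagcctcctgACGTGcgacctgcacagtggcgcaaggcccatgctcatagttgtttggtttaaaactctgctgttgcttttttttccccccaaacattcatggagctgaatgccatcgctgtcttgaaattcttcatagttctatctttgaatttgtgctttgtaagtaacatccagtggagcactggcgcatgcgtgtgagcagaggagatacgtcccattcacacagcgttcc
TMEM145: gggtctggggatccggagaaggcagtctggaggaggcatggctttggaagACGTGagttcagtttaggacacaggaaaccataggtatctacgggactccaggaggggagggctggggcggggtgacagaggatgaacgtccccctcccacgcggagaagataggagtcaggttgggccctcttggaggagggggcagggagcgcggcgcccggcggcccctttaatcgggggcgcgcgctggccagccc
RAB39A: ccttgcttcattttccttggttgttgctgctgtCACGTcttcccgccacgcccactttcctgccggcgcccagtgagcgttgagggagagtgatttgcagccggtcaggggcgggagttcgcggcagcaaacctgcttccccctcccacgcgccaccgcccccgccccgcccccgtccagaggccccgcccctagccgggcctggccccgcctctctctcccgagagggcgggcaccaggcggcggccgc
Each of the 5 windows held this 5-letter form at 1 place. Among 35116 windows of the same length, 18.5% held it on either strand, and so did 21.8% of the 11387 windows with at least 65% G and C. In 4 of the 5 windows the G and C content lay between 65.6% and 74.0%, while the ATP1B2 window had 49.2%, beside a median of 58.0% over all windows. GGGCGG, the GC box, was found in 3 of 5 (ENO2, RAB39A and TMEM145) and in 42.6% of all windows. Neither GGACAG nor TTCAGCACC, the right and left parts of the RE1 element that the neuronal gene repressor REST binds, was found in the 5 windows, against 17.2% and 0.3% of all windows. These matches describe letters, not binding sites, and the motifs were picked with the genes' behaviour known.

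The arrays had medians of 6.94 to 7.09 on the log2 scale and correlated at 0.985 to 0.995 within a target and 0.973 to 0.987 between targets. The probe set for BMI1, shared with the readthrough transcript COMMD3-BMI1, read 8.73 and 9.99 with the BMI1 hairpins, against 10.64 in their control, or 26.8% and 64.0% of its level. FAL-1 was not analysed here, so its knockdown was not checked. KRT8 and KRT18, keratins of simple epithelia, read 9.04 to 11.07 and 8.45 to 9.58 over the 6 arrays. PAX8, a marker of many ovarian carcinomas, read 6.56 to 6.98, and CDH1 (E-cadherin) 5.80 to 6.09. These 4 genes were named after their values were seen. The files give no detection call, so absence cannot be stated. No gene passed limma's test for either knockdown (0% of 18418 genes at an adjusted p of 0.05, for each). For BMI1 and FAL-1, 477 and 563 genes had an unadjusted p under 0.05. Each is a share of the genes below the 0.05 that chance alone gives. That fit had 2 residual degrees of freedom. Since lower values chose the 6 genes, their changes are given as a description, with no test.

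**Figure D1:**
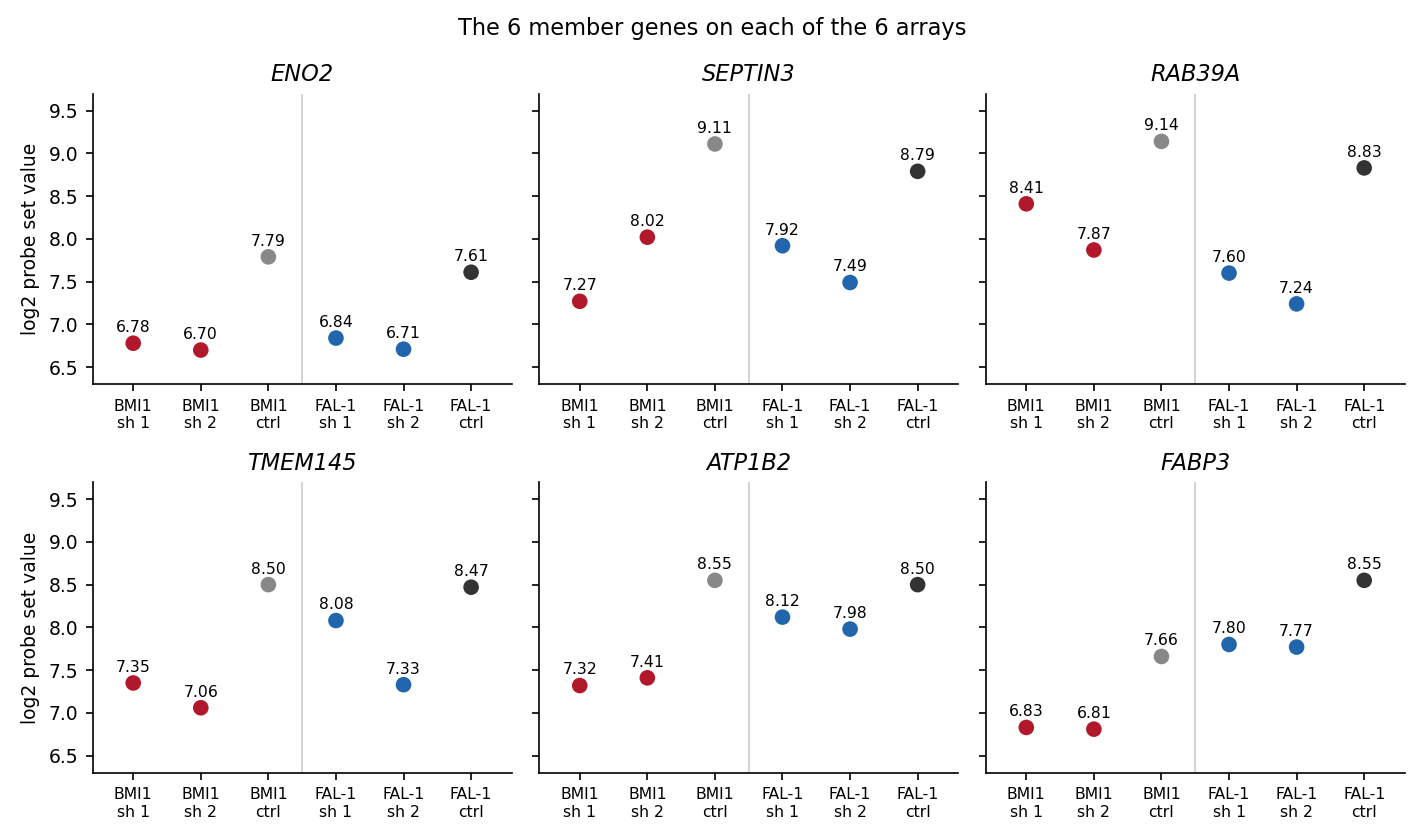
Log2 probe set value (y axis) of each of the 6 genes on each of the 6 arrays (x axis; sh, hairpin; ctrl, control), 1 point an array. Both hairpins of each target read below their own control for every gene, and FABP3 has the widest gap between controls; values compare across arrays within a gene, not between genes.

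All 6 genes read below their own control with both hairpins of each target. Over all genes, 30.7% did so with the BMI1 hairpins, 27.7% with the FAL-1 hairpins and 14.1% with all 4. This is what the choice of the genes asks for, so nothing is read from the count. With BMI1 knockdown the mean log2 changes ran from -1.47 to -0.85 with a median of -1.12, against a median of 0.01 for all genes. With FAL-1 knockdown they ran from -1.41 to -0.44 with a median of -0.80, against 0.03 for all genes. A change of 1.5-fold or more with both hairpins was seen in 6 of the 6 genes with BMI1 knockdown (0.901% of all genes) and in 4 (ENO2, SEPTIN3, RAB39A and FABP3) with FAL-1 knockdown (0.635% of all genes). None was higher by as much, beside 0.538% of all genes with BMI1 and 0.576% with FAL-1 knockdown. In a bulk sample, fewer cells with a transcript and less of it per cell cannot be told apart.

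Among the metabolic genes, ENO2 read 6.78 and 6.70 with the BMI1 hairpins, against 7.79 in the BMI1 control. The FAL-1 hairpins gave 6.84 and 6.71, against 7.61 in the FAL-1 control. The 4 hairpin arrays lay within a narrow band, and both controls stood above all of them. The mean log2 change was -1.05 ± 0.06 with BMI1 knockdown and -0.83 ± 0.10 with FAL-1 knockdown (SD, n = 2 hairpins each), or 48.3% and 56.2% of the control level. Ordered from the lowest change upward, ENO2 ranked 35 of 18418 genes with BMI1 knockdown and 186 with FAL-1 knockdown. Set against the other target's control, its mean changes were -0.87 with the BMI1 hairpins and -1.01 with the FAL-1 hairpins, so the direction held with either control.

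FABP3 read 6.83 and 6.81 with the BMI1 hairpins, against 7.66 in their control. The FAL-1 hairpins gave 7.80 and 7.77, against 8.55 in theirs. Each set of arrays showed a drop of like size, but the whole FAL-1 set lay higher, so the FAL-1 hairpins read above the BMI1 control. The mean log2 change was -0.85 ± 0.02 with BMI1 knockdown and -0.77 ± 0.02 with FAL-1 knockdown (SD, n = 2 hairpins each), or 55.6% and 58.7% of the control. The BMI1 control lay below the FAL-1 control by a log2 difference of -0.89, larger than either change. Set against the other target's control, FABP3 therefore read -1.73 with the BMI1 hairpins and 0.12 with the FAL-1 hairpins. The direction of the FAL-1 value depends on which control is used, and the cause of the gap between the controls was not tested.

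Of the membrane proteins, ATP1B2 showed the clearest contrast between the targets. It read 7.32 and 7.41 with the BMI1 hairpins, against 8.55 in their control, and 8.12 and 7.98 with the FAL-1 hairpins, against 8.50 in theirs. The FAL-1 hairpins thus lay between the BMI1 hairpins and the controls, which nearly coincided. The mean log2 change was -1.19 ± 0.06 with BMI1 knockdown and -0.44 ± 0.10 with FAL-1 knockdown (SD, n = 2 hairpins each), which is 43.8% and 73.6% of the control. ATP1B2 ranked 15 from the lowest change with BMI1 knockdown and 1075 with FAL-1 knockdown. The difference between these changes was -0.75. No gene passed limma's test of the difference between knockdowns (0% of 18418 genes at an adjusted p of 0.05). Both changes chose the gene, so no p-value is given for it.

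TMEM145 read 7.35 and 7.06 with the BMI1 hairpins, against 8.50 in their control. The FAL-1 hairpins gave 8.08 and 7.33, against 8.47 in the FAL-1 control. The BMI1 hairpins were close together, while the FAL-1 hairpins differed by 0.75 on the log2 scale. The mean log2 change was -1.29 ± 0.20 with BMI1 knockdown and -0.77 ± 0.53 with FAL-1 knockdown (SD, n = 2 hairpins each). FAL-1 hairpin 2 alone gave -1.14 and hairpin 1 alone -0.39, so the FAL-1 value of TMEM145 rests largely on hairpin 2. The controls differed by 0.03, and either one gave nearly the same changes.

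SEPTIN3 had the largest mean change of the 6 with BMI1 knockdown. It read 7.27 and 8.02 with BMI1 hairpins 1 and 2, against 9.11 in their control. The FAL-1 hairpins read 7.92 and 7.49, against 8.79 in the FAL-1 control. BMI1 hairpin 1, which left less BMI1 signal, gave the lower SEPTIN3 value. The mean log2 change was -1.47 ± 0.53 with BMI1 knockdown and -1.08 ± 0.31 with FAL-1 knockdown (SD, n = 2 hairpins each), or 36.0% and 47.2% of the control. It ranked 3 and 42 from the lowest change.

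RAB39A had the opposite order of targets. The BMI1 hairpins read 8.41 and 7.87, against 9.14 in the BMI1 control, and the FAL-1 hairpins 7.60 and 7.24, against 8.83 in the FAL-1 control. All 4 hairpins lay below both controls, and the FAL-1 hairpins were the lowest. The mean log2 change was -1.0 ± 0.38 with BMI1 knockdown and -1.41 ± 0.25 with FAL-1 knockdown (SD, n = 2 hairpins each), and the ranks were 46 and 9. Here BMI1 hairpin 2, which left more BMI1 signal, gave the larger change.

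**Figure D2:**
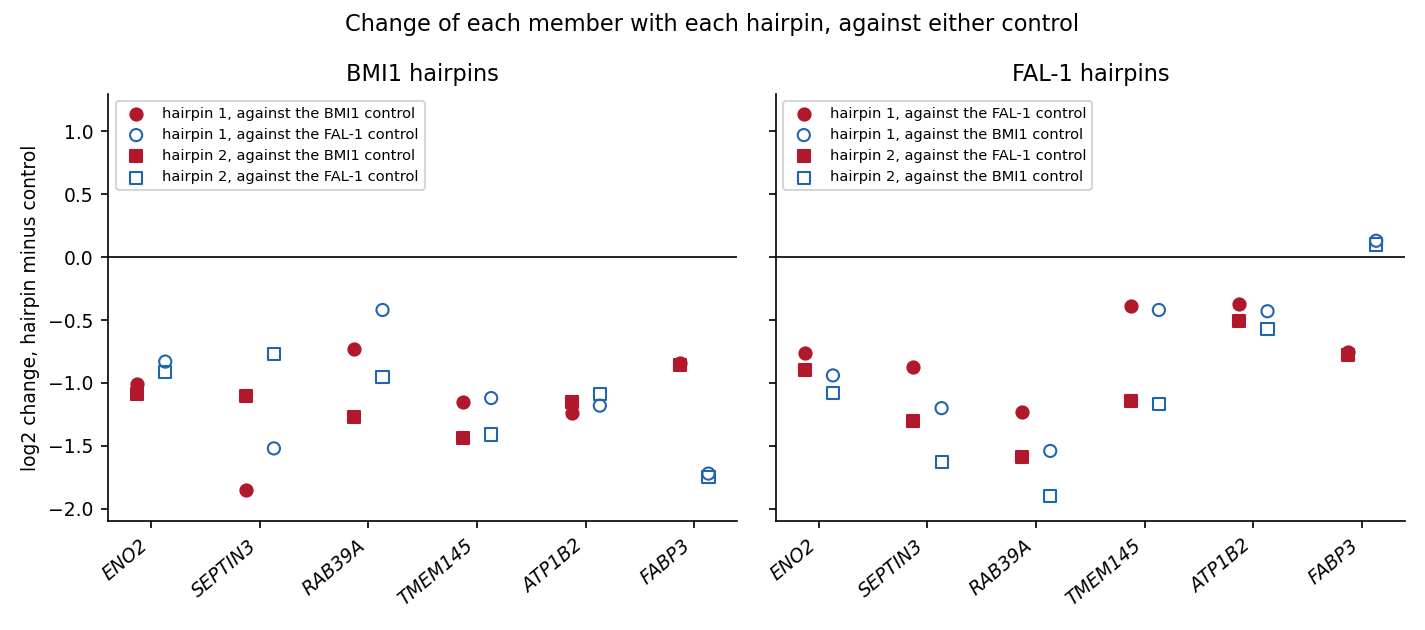
Log2 change (hairpin minus control, y axis) of each of the 6 genes (x axis) with the BMI1 hairpins (left) and the FAL-1 hairpins (right), for hairpin 1 (circles) and hairpin 2 (squares), against the own control (filled) and the other target's control (open). Only FABP3 with the FAL-1 hairpins against the BMI1 control crosses the zero line, at 0.13 and 0.10.

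The hairpins of a target gave changes of different size. With the FAL-1 hairpins, all 6 genes read lower with hairpin 2 than with hairpin 1, by 0.03 (FABP3) to 0.75 (TMEM145) on the log2 scale, and the median change was -1.02 with hairpin 2 and -0.76 with hairpin 1. With the BMI1 hairpins the medians were -1.08 for hairpin 1 and -1.12 for hairpin 2, although hairpin 1 left 26.8% and hairpin 2 left 64.0% of the BMI1 signal. SEPTIN3 and ATP1B2 were lower with hairpin 1, by 0.75 and 0.09, and ENO2, RAB39A, TMEM145 and FABP3 were lower with hairpin 2, by 0.02 to 0.54. With 1 array for each hairpin, these differences have no replicate check. The share of all genes that read lower with hairpin 2 than with hairpin 1 was not counted, so nothing is read from the count of 6. Over all probe sets, FAL-1 hairpin 2 correlated with its control at 0.985 and FAL-1 hairpin 1 at 0.995.

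In 5 of the 6 genes all 4 hairpin arrays read below both controls, as did 8.04% of all genes, and FABP3 was the exception. The gap between the lowest control and the highest hairpin was widest in SEPTIN3 (0.77) and ENO2 (0.76) and narrowest in ATP1B2 (0.37), TMEM145 (0.39) and RAB39A (0.42). Between pairs of the 6 genes, Pearson's r over the 6 arrays ran from 0.19 for RAB39A with FABP3 to 0.92 for ENO2 with SEPTIN3. These values share the same arrays and genes chosen to be low on the same 4 of them, so r describes only how the rest of the profile differs.

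Most relatives of the 6 genes stood nearer to their controls than the 6 did, a gap that choosing the 6 for low values builds in. No gene of any list used here passed limma's test. Among enolases, ENO1, the form found in most tissues, read -0.26 ± 0.06 with BMI1 knockdown and -0.18 ± 0.13 with FAL-1 knockdown, and ENO3, the muscle form, -0.36 ± 0.24 and -0.38 ± 0.30 (log2 change, SD, n = 2 hairpins each). Both were named after their values were seen. Of 13 measured enolases and lower glycolysis enzymes, 8 (61.5%) were below the control with both BMI1 hairpins and 8 with both FAL-1 hairpins, beside 30.7% and 27.7% of all genes. With all 4 hairpins 6 of the 13 were below, and the medians were -0.20 with BMI1 and -0.05 with FAL-1 knockdown. Against the other target's control the counts were 10 with the BMI1 hairpins and 5 with the FAL-1 hairpins. The share of all genes against that control was not counted. In that list ALDOC, the brain form of aldolase, was lower by 1.5-fold or more with both BMI1 hairpins. It read 7.57 and 8.36 with them, against 9.49 in their control, a change of -1.53 ± 0.55. With the FAL-1 hairpins ALDOC read 9.71 and 8.60, against 10.08 in the FAL-1 control, so the second hairpin made most of that difference.

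Of 11 measured septins besides SEPTIN3, 6 (54.5%) were below the control with both BMI1 hairpins and 5 (45.5%) with both FAL-1 hairpins, beside the same 30.7% and 27.7% of all genes. The medians were -0.08 and -0.03, and 3 of the 11 were below with all 4 hairpins. SEPTIN6 stood lowest, at -0.78 ± 0.39 and -0.68 ± 0.72, and SEPTIN2, a widely expressed septin, at 0.01 ± 0.02 and -0.03 ± 0.09 (log2 change, SD, n = 2 hairpins each). SEPTIN6 and SEPTIN2 were named after their values were seen. RAB39B, the paralog of RAB39A, stood above its control with the BMI1 hairpins and below it with the FAL-1 hairpins. Its values were 7.06 and 6.97 with the BMI1 hairpins, against 6.78 in their control, and 7.29 and 7.10 with the FAL-1 hairpins, against 8.03 in theirs. The FAL-1 control had the highest value of the 6 arrays, and against the BMI1 control the FAL-1 hairpins read 0.41 on average. The 9 measured genes of the RAB39 list had medians of 0.01 and -0.04.

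Among the sodium pump genes, 8 had a probe set of their own, and the catalytic alpha subunits were not analysed here. The other beta subunits differed from ATP1B2. ATP1B1 read 8.45 and 8.97 with the BMI1 hairpins, against 8.60 in their control, and 7.30 and 9.25 with the FAL-1 hairpins, against 8.69 in theirs, so the hairpins of each target lay on either side of the control. ATP1B3 stood at -0.16 ± 0.23 and -0.06 ± 0.07 (SD, n = 2 hairpins each). None of the 8 pump genes was below the control with both BMI1 hairpins, beside 30.7% of all genes. With both FAL-1 hairpins 3 (37.5%) were, beside 27.7% of all genes. ATP1B1 and ATP1B3 were named after their values were seen.

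Of the 6 relatives of TMEM145, 5 were above the control with both BMI1 hairpins, where 32.9% of all genes were, and 4 with both FAL-1 hairpins, where 37.2% were. TMEM87B, a membrane protein of the Golgi, was higher by 1.5-fold or more with both BMI1 hairpins, at 9.62 and 9.60 against 8.90 in the control. The FAL-1 hairpins read 8.64 and 10.00, on either side of their control at 9.45. Of 9 measured fatty acid binding protein relatives, 3 (33.3%) were below the control with both BMI1 hairpins and 3 with both FAL-1 hairpins. Of all genes, 30.7% and 27.7% were. Only 2 of the 9 averaged 6 or more on the log2 scale. CRABP2, which carries retinoic acid, was the one lower by 1.5-fold or more with both BMI1 hairpins, at 8.98 and 9.46 against 10.36. The FAL-1 hairpins read 9.07 and 10.55, on either side of their control at 10.17. The 19 measured genes of fatty acid uptake and oxidation had medians of -0.05 with BMI1 knockdown and -0.03 with FAL-1 knockdown, and none differed by 1.5-fold with both hairpins of a target.

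**Figure D3:**
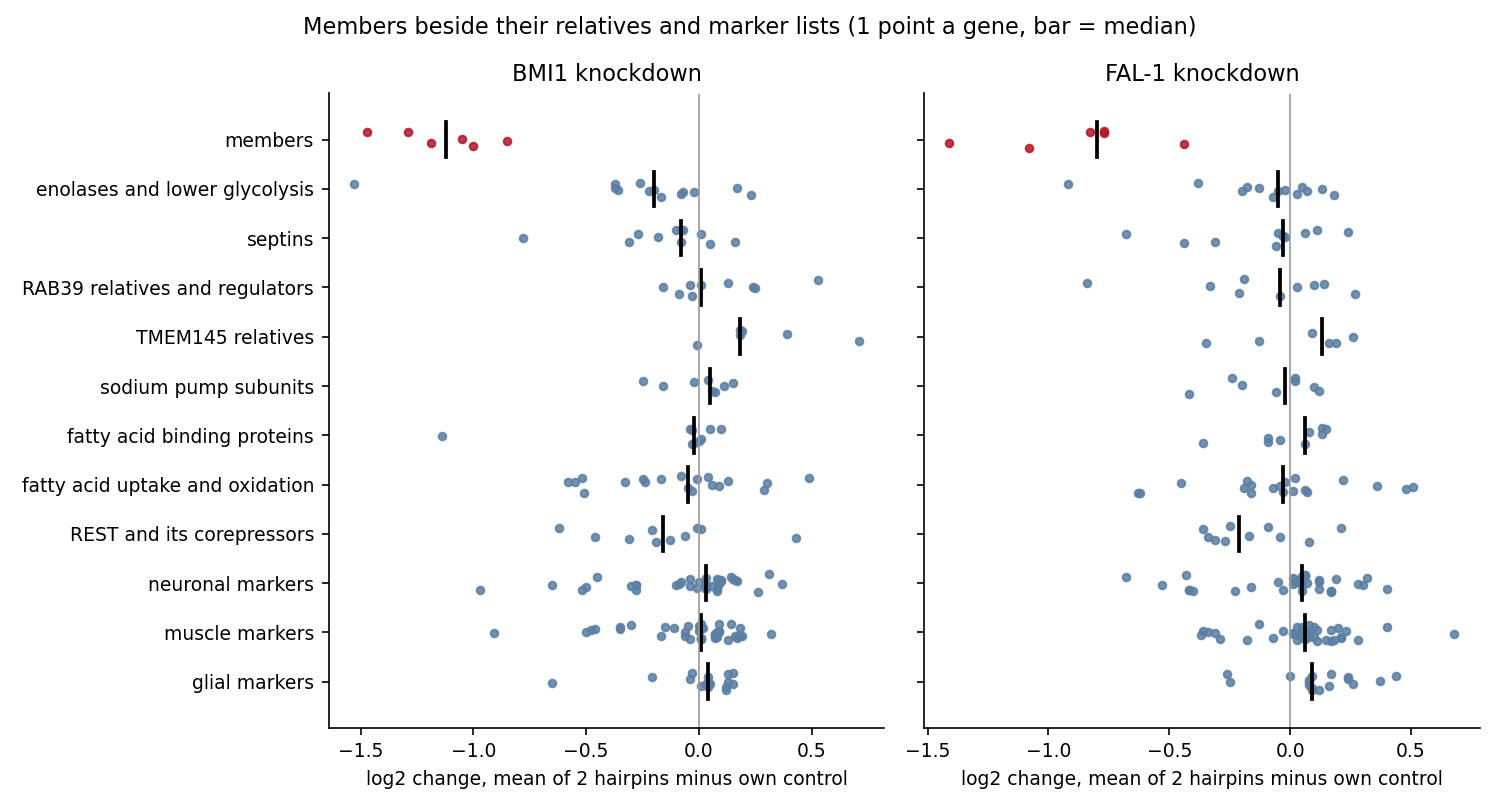
Mean log2 change of 2 hairpins against their own control (x axis) for each gene (1 point) of the 6 chosen genes and of 11 other lists (y axis), with BMI1 knockdown on the left and FAL-1 knockdown on the right; bars are medians. The medians of the chosen genes are -1.12 and -0.80, and those of the neuronal and muscle markers lie between 0.01 and 0.06.

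General neuronal and muscle markers had median changes near 0 and stood both above and below the control. The 6 genes were chosen for low values, so their distance from these lists follows from the choice. Of 36 measured neuronal markers, 12 were below the control with both BMI1 hairpins and 12 above it, and with the FAL-1 hairpins 8 were below and 12 above. Of 39 muscle markers, 11 were below and 13 above with BMI1 knockdown, and 9 below and 18 above with FAL-1 knockdown. The shares below were 33.3% and 28.2% with BMI1 knockdown, beside 30.7% of all genes, and 22.2% and 23.1% with FAL-1 knockdown, beside 27.7% of all genes. The shares above were 33.3% for each list with BMI1 knockdown, beside 32.9% of all genes, and 33.3% and 46.2% with FAL-1 knockdown, beside 37.2% of all genes. The medians were 0.03 and 0.05 for neuronal and 0.01 and 0.06 for muscle markers. Only 26 of the 36 neuronal and 27 of the 39 muscle markers averaged 6 or more on the log2 scale. A probe set with little signal has little room to fall, so medians near 0 say little about the dim markers. Of 17 glial markers, which bear on ATP1B2, 2 (11.8%, beside 30.7% of all genes) were below with BMI1 knockdown. With FAL-1 knockdown 1 (5.9%, beside 27.7% of all genes) was below. Above the control were 5 (29.4%, beside 32.9% of all genes) with BMI1 and 11 (64.7%, beside 37.2%) with FAL-1 knockdown.

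Single markers did stand low. RAB3A, a GTPase of synaptic vesicles, read 8.97 and 9.35 with the BMI1 hairpins, against 10.13 in the control, a log2 change of -0.97 ± 0.27. Its FAL-1 hairpins read 9.44 and 9.53, against 9.72 in the FAL-1 control, a change of -0.23 ± 0.07. TNNC1, the troponin C of slow and cardiac muscle, read 7.18 and 7.59 with the BMI1 hairpins, against 8.29, and 8.06 and 7.39 with the FAL-1 hairpins, against 8.10 (log2 change -0.91 ± 0.29 and -0.37 ± 0.47, SD, n = 2 hairpins each). MEF2C, a muscle transcription factor, went the other way with FAL-1 knockdown, at 8.48 and 8.33 against 7.72. It read 6.96 and 6.65 with the BMI1 hairpins, against 6.71 in theirs. Of the neuronal markers, 4 (RAB3A, NEFH, ELAVL3 and KIF5A) had all 4 hairpins below both controls, and of the muscle markers 5 (MB, ACTN3, TNNC1, CASQ2 and ATP2A1). The shares are 4 of 36 and 5 of 39, beside 8.04% of all genes. CASQ2 moved little, reading 5.48 to 5.56 over the 6 arrays. Other markers had all 4 hairpins above both controls, as did 9.02% of all genes. They were STX1A, CPLX2 and NSG1 of the neuronal markers and MYF5, ACTA1, MYH7, MYL1, NEB and CASQ1 of the muscle markers. Several of these moved little too. MYL1 read 5.56 to 5.67, CASQ1 5.81 to 6.01, CPLX2 6.27 to 6.42 and MYF5 5.72 to 5.98 over the 6 arrays. NEB had the widest range of them, 5.61 to 6.21, and ACTA1 was the brightest, at 8.30 to 8.65. NEFH, a heavy neurofilament, read -0.65 and -0.42 and ELAVL3, a neuronal RNA-binding protein, -0.50 and -0.43 as mean log2 changes with BMI1 and FAL-1 knockdown. The markers given here other than RAB3A, TNNC1 and MEF2C were named after their values were seen.

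REST, which represses neuronal genes, read 10.46 and 10.65 with the BMI1 hairpins, against 10.12 in the control, and 10.22 and 10.56 with the FAL-1 hairpins, against 10.18 in theirs. All 4 hairpins were above both controls, as for 9.02% of all genes, although FAL-1 hairpin 1 was higher than its control by 0.04. The mean log2 changes were 0.43 ± 0.13 and 0.21 ± 0.24 (SD, n = 2 hairpins each). REST was named after its values were seen. Of the 10 measured genes of REST and its corepressors, 6 (60.0%) were below the control with both BMI1 hairpins and 6 with both FAL-1 hairpins, beside 30.7% and 27.7% of all genes, and 4 were below with all 4 hairpins. The medians were -0.16 and -0.21. PDGFRB, a receptor of stromal cells taken from the list of blood and stromal markers, read 6.69 and 7.09 with the BMI1 hairpins, against 7.92, and 7.15 and 7.07 with the FAL-1 hairpins, against 7.74. Of that list's 11 measured genes, only PDGFRB (9.1%, beside 30.7% of all genes) was below with both BMI1 hairpins. With both FAL-1 hairpins 4 (36.4%, beside 27.7%) were below. Above the control were 6 (54.5%, beside 32.9%) with BMI1 and 5 (45.5%, beside 37.2%) with FAL-1 knockdown. Of 14 epithelial and ovarian cancer markers, 1 and 2 were below and 5 and 7 above, with medians of 0.06 and 0.11.

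The genes whose profile over the 6 arrays was most like the mean of the 6 were PYGM (Pearson's r of 0.991), RIMKLA (0.983), REEP6 (0.981), FZD2 (0.981), KHK (0.977), CKB (0.976), NIF3L1 (0.964) and PDK1 (0.959). They were ranked among 3191 genes with an SD of at least 0.3 over the arrays. PYGM, muscle glycogen phosphorylase, read 6.42 and 6.52 with the BMI1 hairpins, against 8.68, and 6.99 and 6.53 with the FAL-1 hairpins, against 8.37. CKB, the brain creatine kinase, read 8.92 and 8.79 against 10.25, and 9.72 and 9.08 against 10.29. In both genes FAL-1 hairpin 1 was the highest of the 4 hairpins, as it was for the mean of the 6 genes. The ranking picks genes for such likeness, so nothing is read from it. RIMKLA, an enzyme that makes N-acetylaspartylglutamate, read 7.10 and 7.16 with the BMI1 hairpins, against 8.30, and 7.80 and 7.31 with the FAL-1 hairpins, against 8.32. PDK1, a kinase that limits entry of pyruvate into the mitochondrial cycle, read 9.46 and 9.25 against 10.47, and 9.82 and 9.10 against 10.35. The profile rests on 6 arrays, and many genes can match it.

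**Figure D4:**
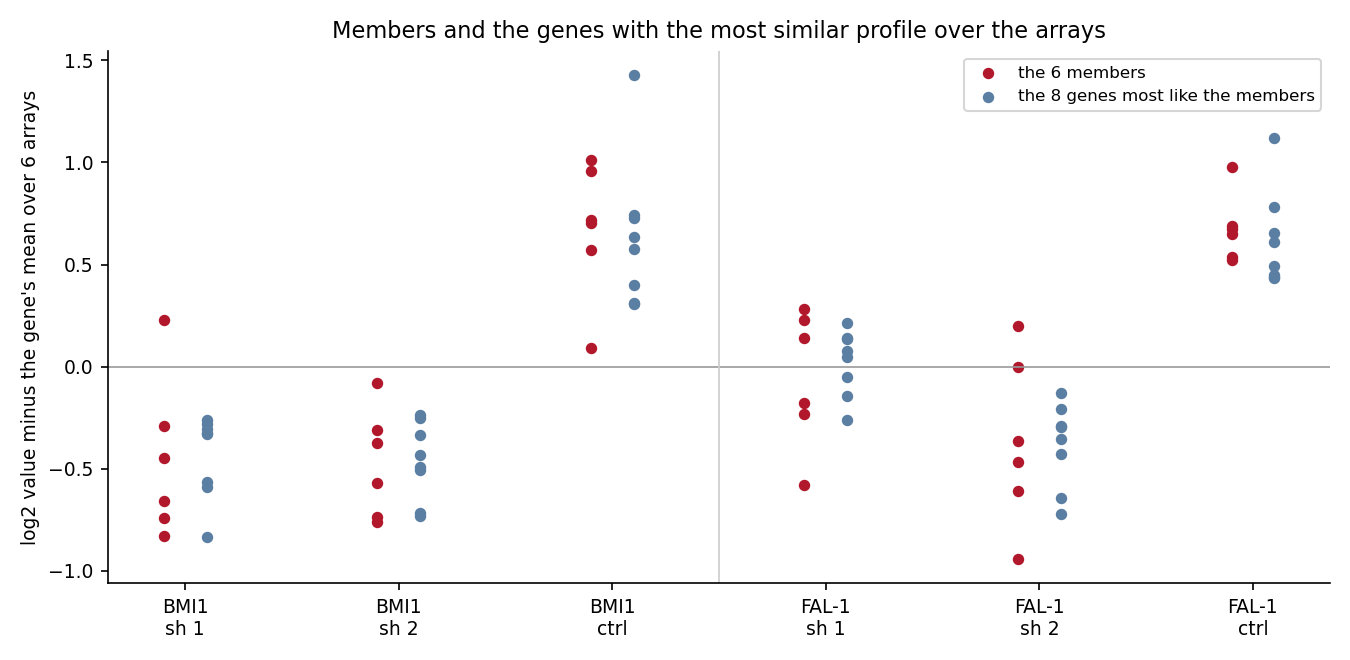
Log2 value minus the gene's own mean over the 6 arrays (y axis) for the 6 chosen genes (red) and the 8 most similar genes (blue) on each array (x axis; sh, hairpin; ctrl, control), 1 point a gene. The mean of the 6 genes is -0.46 and -0.47 with the BMI1 hairpins, 0.68 in their control, -0.06 and -0.36 with the FAL-1 hairpins and 0.67 in the FAL-1 control.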

How the data were processed

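Expression was measured on 6 arrays, 2 hairpins and 1 control for each of 2 targets. The deposited log2 values are probe set summaries made by the authors with RMA, per the submitters' processing notes. The labels do not say which software ran it or whether the 6 arrays were summarised jointly. Of 33252 probe sets, 19460 had 1 gene symbol in the platform annotation, 1754 had several and 12038 none. Those with 1 symbol, and the one for BMI1 and COMMD3-BMI1, gave 18418 genes, and of several probe sets of a gene the brightest was kept (769 genes). Changes are hairpin minus control. limma 3.58.1 (R 4.3.3) fitted 4 group means to all 6 arrays, two-sided, with Benjamini-Hochberg adjustment over all genes, after a test on simulated data. With 2 arrays against 1, the smallest p of an exact permutation test is 0.333. Precision is limited by the number of arrays. The 6 genes, the lists and the motifs were chosen with earlier results of these data known. List genes were named where both hairpins of a target differed by 1.5-fold or more, and other named genes are marked as named after their values were seen. Genes on probe sets with several symbols were not used. Python 3.11.15 and matplotlib 3.10.9 made the figures. Alternatives were the other control, the mean of both controls, quantile and cyclic loess normalization, the mean of probe sets, a filter at 6, a variance trend, the hairpin number as a block, a threshold of 0.1 and leaving out each hairpin.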

Additional observations from a re-analysis of the deposited data

Results flagged for a closer look

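RAB39B differed in direction between the targets. Both BMI1 hairpins read above their control (0.28 and 0.19 on the log2 scale), and both FAL-1 hairpins below theirs (-0.74 and -0.93), a difference of 1.07 between the mean changes. limma's test of the difference did not pass (adjusted p = 0.9999, unadjusted p = 0.005812). The controls themselves read 6.78 (BMI1) and 8.03 (FAL-1), and against the BMI1 control the FAL-1 hairpins read 0.41 on average. The part of the FAL-1 control in this difference was not tested.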

How the results depend on the processing

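The 6 genes stayed below the control in every setting tried, except FABP3 with FAL-1 knockdown, which read 0.12 against the BMI1 control. The median of the 6 changes with BMI1 knockdown was -1.22 against the mean of both controls. Leaving out 1 hairpin gave medians of -1.12 to -1.08 for BMI1 and -1.02 to -0.76 for FAL-1 knockdown. Of 24 changes of single genes under quantile or cyclic loess normalization, 23 moved by less than the SD between hairpins, as did 9 of 12 against the mean of both controls and 6 of 12 against the other control. Each of the 6 genes has 1 probe set, so averaging probe sets could not move it. Leave-one-out aside, 130 of 156 list counts stayed within 1.5 times the main count. With 1 hairpin left out, 13 to 23 of 36 neuronal and 17 to 20 of 39 muscle markers were below the BMI1 control, and 13 to 19 and 11 to 19 below the FAL-1 control, since 1 hairpin then sufficed. Of all genes, 51.9% were below with BMI1 hairpin 1 alone (neuronal markers 63.9%, muscle markers 51.3%), 45.9% with BMI1 hairpin 2 (36.1%, 43.6%), 48.5% with FAL-1 hairpin 1 (52.8%, 48.7%) and 42% with FAL-1 hairpin 2 (36.1%, 28.2%). The leave-one-out counts and the filter on list genes were added after the data were seen. limma called 0 genes under every alternative run for each of the 3 contrasts (the other control and the mean of both controls were not run for the difference between knockdowns), with 84 to 1927 genes at an unadjusted p under 0.05. With the hairpin number as a replicate block, 0 genes were called too. Same-numbered hairpins target different transcripts and share only a number, and their deviations correlated at 0.275 across genes.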
